A study of Bos taurus with 20 samples.

Results

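SCNN1A (ENSBTAG00000002631) encodes the alpha subunit of the epithelial sodium channel (ENaC), and it is 1 gene of the 24616 that the deposited libraries list, of which 14293 passed the filter on low counts. The gene was chosen by its row identifier and from its own measured values in these 20 libraries, namely its low number of reads, its wide range between libraries and its covariation with the main axis of expression and with the library codes. Those values are therefore described below with no test. A test is given only for the difference between feed efficiency groups, which is not among the values named above. SCNN1A is also in the study's gene table, which was drawn up on these samples. That test is therefore not independent of the study's own selection.

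ENaC is an amiloride-sensitive sodium channel of the apical membrane, commonly built from alpha, beta and gamma subunits. In absorptive epithelia sodium enters through such channels and leaves the cell through the basolateral sodium-potassium pump. The rumen wall is a stratified squamous epithelium that absorbs sodium, and sodium-proton exchangers are a route of uptake there. Whether ENaC carries sodium in the rumen was not measured here.

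The data were RNA-seq libraries of rumen epithelium from 20 Hereford x Aberdeen Angus steers, 1 library per steer, prepared from papillae of the ventral sac that were cut off after slaughter. All steers had been fed a grain-based finishing diet, and their age at slaughter is not given in the sources used here. Residual feed intake (RFI) is the feed an animal eats beyond what its size and growth predict, and low RFI (L-RFI) steers are the efficient ones, while high RFI (H-RFI) steers are the inefficient ones. The sample labels name 11 libraries High RFI and 9 Low RFI, but the list of selected animals in the study gives the opposite group for 6 of these steers and does not hold 2 of them (281 and 345), so groups were compared over the 12 steers on which both sources give 1 group (7 H-RFI and 5 L-RFI). The labels follow the steer numbers, with High RFI on steers 11 to 205 and Low RFI on steers 219 to 455. Groups by label therefore cannot be told apart from the order of the steer numbers. The study's list instead gives an RFI value for each of its animals.

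Values are CPM, the reads of a gene scaled to a fixed total of reads on genes, and each library held between 9622534 and 13960297 such reads. At these depths 1 to 3 reads cannot be separated from 0 (0.2149 to 0.3118 CPM for 3 reads), and every library was above this floor for SCNN1A, though steer 155 only just, with 4 reads. CPM carries no correction for gene length, so levels were compared between libraries and not between genes. On the first principal component (PC1, 70.8% of the variance of the 500 most variable genes), steers 47, 155, 345, 317 and 105 lay at the positive end, between 15.3 and 30.9, while the other 15 libraries lay between -16.2 and 9.80. The labelled tissue was checked against its markers, of which 5 of 11 for keratinocytes had an identifier. KRT14, the keratin of basal keratinocytes, was between 0 and 1.35 CPM (median 0.378), and PKP1 (0.0914 to 0.831 CPM) and ZNF750 (0 to 0.592 CPM) were as low, so that none of these 3 passed the filter. LYPD3 (2.94 to 6.58 CPM) and PKP3 (17.7 to 55.0 CPM) passed it, as did the endothelial receptor gene KDR (12.6 to 67.4 CPM) and the smooth muscle light chain gene MYL9 (264 to 531 CPM). Of the 5 keratinocyte markers with an identifier, 3 thus failed the filter in libraries labelled as epithelium, while LYPD3 and PKP3 passed it. The medians of KRT14 and PKP1 (0.337 CPM) were above the level of 3 reads, and that of ZNF750 (0.0851 CPM) was below it. The other markers of the 11 could not be read, so the keratinocyte content of the libraries is not settled. Its part in the SCNN1A values was not tested. In such bulk samples fewer SCNN1A-expressing cells and less SCNN1A RNA per cell cannot be told apart.

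SCNN1A was a low-abundance transcript with 597 reads over the 20 libraries, a median of 18 reads per library and a median level of 1.47 CPM. The lowest library, steer 155, had 4 reads (0.342 CPM), and the highest, steer 51, had 175 reads (14.6 CPM), a ratio of 42.6. Steer 51 alone held 29.3% of all SCNN1A reads, and its level was 3.53 times that of the next library, steer 271 (52 reads, 4.13 CPM). The exact Poisson 95% interval of steer 51 (12.5 to 16.9 CPM) overlapped that of no other library, the highest other upper bound being 5.42 CPM. These intervals cover counting error only.

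Most of the wide range came from the ends. Without steer 51, the ratio of highest to lowest library was 12.1, and without both steer 51 and the lowest library the next library was 6.09 times the second lowest, steer 47 (7 reads, 0.678 CPM). The mean level was 2.52 ± 3.02 CPM (SD, n = 20), or 1.88 ± 1.05 CPM without steer 51 (n = 19). On the scale of log2(CPM + 1) after TMM scaling (trimmed mean of M values, which adjusts each library for its RNA composition), the SD of SCNN1A was 0.695, at percentile 86.2 among the 500 genes with the nearest mean level, and without steer 51 it was 0.465, at percentile 54. The biological coefficient of variation estimated by edgeR was 0.705 for SCNN1A against 0.478 for the trend at its level, and 0.455 against 0.478 without steer 51. Without steer 51 the spread of SCNN1A was thus close to that of genes at its level. Steer 51 was left out as the highest library of SCNN1A and was not chosen on the other genes. The fall in the percentile therefore follows in part from that choice. The SCNN1A values also moved with the scaling, and the ratio of highest to lowest library was 28.5 after TMM scaling.

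The libraries carry a short code in their column header, from AD011 to CD012, which neither the labels nor the methods of the study explain. Its middle digits form 3 sets, 01 (8 libraries), 03 (6 libraries) and 12 (6 libraries), and the codes follow the order of the steer numbers in all 20 libraries. In set 03 the SCNN1A levels were 0.678 CPM in steer 47, 3.05 CPM in steer 55, 3.28 CPM in steer 299, 3.74 CPM in steer 281, 4.13 CPM in steer 271 and 14.6 CPM in steer 51. In set 01 they were 0.976 CPM in steer 11, 1.66 CPM at the median and 2.86 CPM in steer 219. In set 12 they were 0.342 CPM in steer 155, 1.31 CPM at the median and 1.47 CPM in steer 409. Of set 03, all libraries but that of steer 47 were above every library of the other sets, whereas sets 01 and 12 overlapped. The margin was within counting error. The Poisson 95% interval of steer 55 (2.14 to 4.22 CPM) overlapped that of steer 219 (1.92 to 4.11 CPM).

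**Figure D1:**
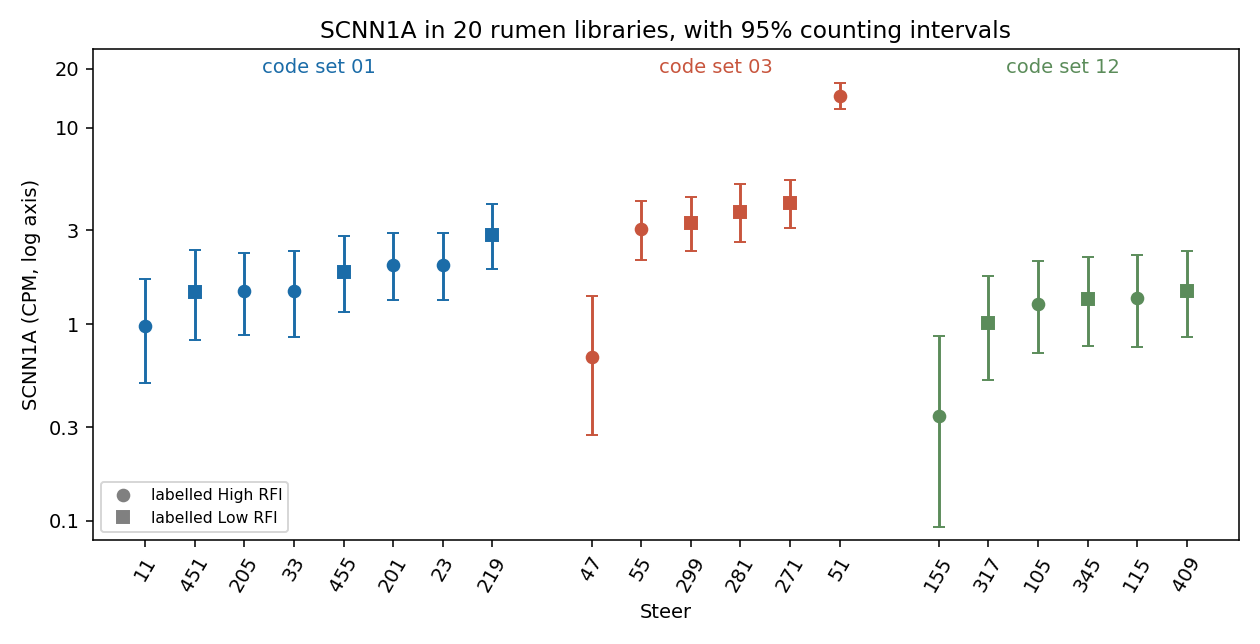
SCNN1A level (CPM, log axis) in each of the 20 libraries, ordered by level within the 3 sets of header codes, with exact Poisson 95% intervals of the reads as bars and the RFI label as the marker shape. Of set 03, 5 libraries lie between 3.05 and 14.6 CPM, above the highest library of the other sets (2.86 CPM), and steer 47 lies below at 0.678 CPM.

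Few genes separated the sets in this way. Across the 14293 genes past the filter, 5 (0.035%) were higher in those 5 libraries of set 03 than in any library of sets 01 and 12, and 8 (0.056%) were lower. Steer 47 was set aside here only after its SCNN1A value had been seen. With all 6 libraries of set 03, 3 genes were higher (0.021%) and 4 lower (0.028%), and SCNN1A was not among them. On the log2 scale SCNN1A in set 03 was on average 0.86 above set 01 and 1.10 above set 12, or 0.54 and 0.79 above them without steer 51. The sets accounted for 44.5% of the SCNN1A variance, against a median of 35.7% over all genes (percentile 71.1). Within the sets, the index of dispersion of the reads, which is 1 for counting alone, was 2.01 in set 01, 1.81 in set 12 and 55.7 in set 03. Steers 47 and 51, the lowest and highest of set 03, were set aside after their values had been seen. Without them the index in set 03 was 0.796. The sets then accounted for 70.8% of the SCNN1A variance. Leaving out the extremes of the gene itself lowers its spread within set 03 by the choice alone. Steers 47 and 51 were not picked on the values of other genes, so SCNN1A is not ranked against them here.

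SCNN1A followed the main axis of expression only weakly. Its Pearson correlation with PC1 was -0.40 (Spearman -0.23, n = 20 libraries that share depth and composition with the axis), whereas the median absolute correlation over all genes was 0.83 and 53.8% of genes reached 0.8 or more. SCNN1A was thus at percentile 17.1 of genes by this measure, and it ranked 1832 of 20064 by variance, outside the 500 genes that defined the axis. The correlation was -0.07 (Spearman 0.24) without steers 47, 105, 155 and 317, and 0.02 (Spearman 0.32) when steer 345 was left out as well, so it rested on the libraries at the positive end. It was -0.21 without the 2 libraries farthest from the median (steers 155 and 47). By set it was 0.08 in set 01 (n = 8), -0.80 in set 03 (Spearman -0.94, n = 6) and -0.49 in set 12 (n = 6), and in set 03 the order of the libraries ran from steer 51 at the negative end to steer 47 at the positive end. Steers 281, 271, 299 and 55 lay between them with overlapping Poisson 95% intervals (2.14 to 4.22 CPM in steer 55, 3.09 to 5.42 CPM in steer 271). The order of these steers by SCNN1A is within counting error, and only steers 51 and 47 were clear of it.

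**Figure D2:**
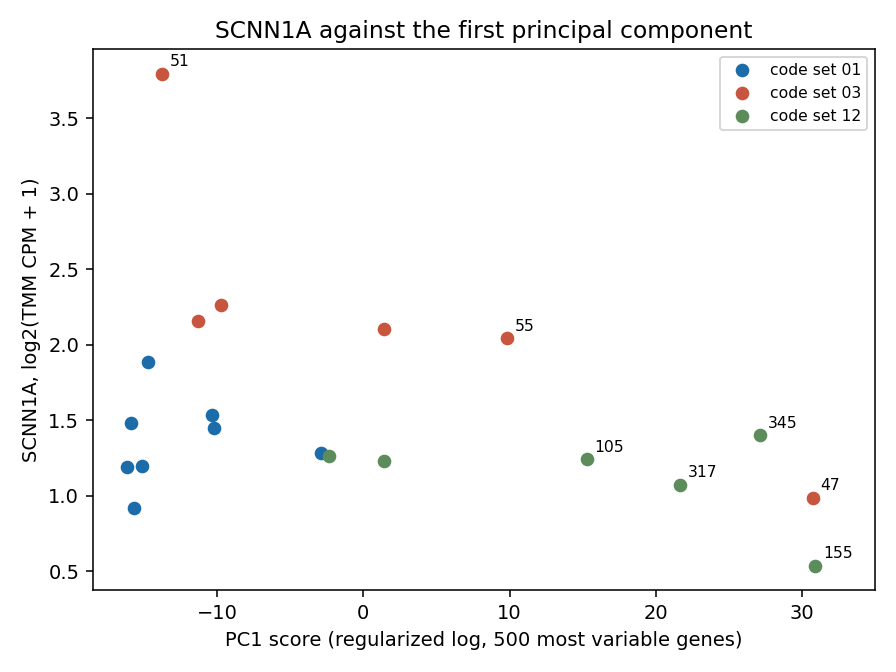
SCNN1A level as log2(TMM-scaled CPM + 1) against the PC1 score of each of the 20 libraries, coloured by set of header codes. Steer 51 stands above all others at 3.79. In set 03 steer 47 is lowest at 0.99, and the remaining libraries of the set lie between 2.04 and 2.26.

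Other properties of the libraries also moved with SCNN1A. Pearson correlations (n = 20) were 0.43 with the TMM factor (Spearman 0.29), 0.36 with the number of genes with a read (Spearman 0.29), 0.40 with the share of reads in the 10 most abundant genes (Spearman 0.43) and 0.03 with the reads on genes (Spearman 0.17). The TMM factor itself ranged from 0.690 in steer 47 to 1.14 in steer 205. Without the 5 libraries at the positive end of PC1 the correlation was 0.08 with the TMM factor, -0.02 with the genes with a read and 0.28 with the share of the 10 most abundant genes. Within set 03 (n = 6) the order of the libraries by SCNN1A was that by the TMM factor and by the genes with a read (Spearman 1 for both, Pearson 0.83 and 0.84), whereas in set 01 (n = 8) these Pearson correlations were -0.35 and -0.32 and in set 12 (n = 6) 0.58 and 0.53. The order in set 03 is within counting error for steers 55, 299, 281 and 271, and only the places of steers 51 and 47 were clear of it. The correlation with the share of the 10 most abundant genes was 0.04 in set 01, 0.50 in set 03 and -0.74 in set 12. The part of library composition in the SCNN1A values was not tested.

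Across the 20 libraries, 162 of 14292 other genes had a Spearman correlation of 0.6 or more with SCNN1A and 143 had one of -0.6 or less, with a median over all genes of 0.04. The files do not pair identifiers with symbols, and the genes at both ends had none in the table used. The highest were ENSBTAG00000027453 (0.87) and ENSBTAG00000012095 (0.85), and the lowest were ENSBTAG00000015368 and ENSBTAG00000012981 (both -0.80). The genes with a symbol were only those of the study's gene table. Among them the nearest were the palmitoyltransferase genes ZDHHC3 (0.64) and ZDHHC5 (0.56) and the chaperone gene BAG6 (0.58). Next were DNM2 (0.53), the dynamin that pinches off endocytic vesicles, and SREBF2 (0.50), a transcription factor of sterol synthesis. The most opposed were the ribosomal protein gene RPL36 (-0.47), the small heat shock protein gene HSPB1 (-0.45), the lysosomal mannosidase gene MAN2B1 (-0.44), ATP6AP1 (-0.43), an accessory subunit of the vacuolar proton pump, and CNIH1 (-0.43), a cargo receptor of the secretory pathway. This order depended on the scaling and on the libraries. On CPM as deposited the median over all genes was 0.34, and MAN2B1 (0.20) and ATP6AP1 (0.34) had the opposite sign. Without steers 47, 105, 155 and 317 the 5 most opposed genes with a symbol were between -0.19 and -0.06. The 5 nearest with a symbol were then between 0.22 (SREBF2) and 0.67 (ZDHHC3). By the main measure these 5 ranked only from 106 to 546 among all genes.

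No identifier was at hand for the 3 other ENaC subunit genes, the 12 regulators of the channel or the 9 sodium transporter and pump genes on the lists used, and they were not analysed here. In the other lists the sign of the correlation with SCNN1A was mixed, beside 52.1% of all genes above 0 (67.1% on CPM as deposited). Of 8 keratinocyte differentiation and junction genes past the filter, of 13 listed, 4 were above 0, with LLGL2 (0.44), a polarity gene, and TMEM54 (0.38) highest and SERPINB8 (-0.37), a serine protease inhibitor gene, lowest. Of 13 membrane turnover genes 6 were above 0, from DNM2 (0.53) to CNIH1 (-0.43), and of 4 proton pump and solute carrier genes only SLC35D2 (0.36), a nucleotide sugar transporter gene, was above 0. On CPM as deposited these counts were 5, 7 and 2. The shares moved with the libraries at the positive end of PC1, since without the 5 of them the counts were 7 of 8, 9 of 13 and 3 of 4, beside 49.2% of all genes. Of the genes in the table of the study, which were chosen on these samples, 25 of 80 of those listed with the higher sign in L-RFI and 24 of 36 of those listed with the lower sign were above 0, and without the 5 libraries 63 of 80 and 9 of 36 were.

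The library of steer 51, the animal with the highest RFI in the study's list, was examined further after its SCNN1A level had been seen. It was the highest of the 20 libraries in 1696 genes past the filter (11.9%), and in 3 genes (0.021%), SCNN1A among them, its lead over the next library was at least the 1.53 of SCNN1A on the log2 scale. The other 2 had no symbol, and their TMM-scaled levels in steer 51 were 48.6 and 10.6 CPM against 13.8 and 2.97 CPM in the next library. Steer 47 led by this margin in 58 genes, and each of the other 18 libraries did in 0 genes.

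Among the 8 keratinocyte and junction genes, steer 51 was highest in 3 after TMM scaling. TMEM54 was at 55.1 CPM in steer 51 against 46.1 CPM in the next library and a median of 26.6 CPM in the other 19. LLGL2 was at 54.5 CPM against 40.0 CPM and a median of 27.4 CPM, and EFNA3, an ephrin ligand gene, was at 3.38 CPM against 2.15 CPM and a median of 1.26 CPM. PKP3, a desmosomal plakophilin gene, was at 48.4 CPM, second to steer 47 (66.6 CPM). These 4 genes were 1.98 to 2.69 times the median of the other libraries in steer 51, and SCNN1A was 8.95 times that median. The remaining members of the list were closer to the median or below it, with LYPD3 at 1.22, VEZT at 1.02 and SERPINB8 at 0.927 times the median, and S100A11, at 0.719 times, was lowest of the 20 libraries in steer 51. On CPM as deposited steer 51 was highest in 6 of the 8 genes, beside 17% of all genes on that scale, so this count depended on the scaling. KRT14 in steer 51 was inside the range of the other libraries, and KDR, at 59.4 CPM after TMM scaling, was second to steer 281. Steer 51 was highest in 3 of 13 membrane turnover genes (HGS, DNM2 and GCC2) and in 1 of 4 carrier genes (SLC35D2, 10.8 CPM against 7.14 CPM).

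**Figure D3:**
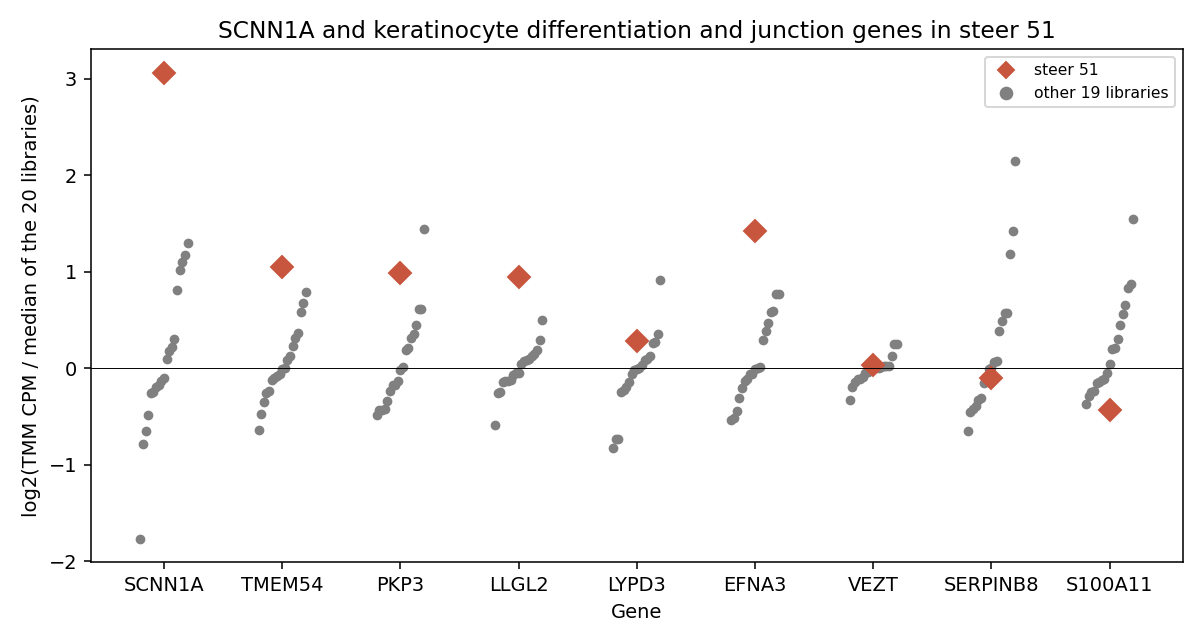
Level of SCNN1A and of the 8 keratinocyte differentiation and junction genes past the filter in each library, as log2 of the TMM-scaled CPM over the median of the 20 libraries, with steer 51 as diamonds and the other 19 libraries as dots. Steer 51 is highest for SCNN1A, TMEM54, LLGL2 and EFNA3, and SCNN1A has the largest distance to the next library of the 9 genes drawn.

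The study compared efficient with inefficient steers by DESeq2, with 9 steers per group. It reported 85 genes higher and 37 lower in L-RFI at an adjusted p under 0.05, and its gene table holds SCNN1A. In the 12 steers compared here, SCNN1A did not differ detectably between the groups. In the 5 L-RFI steers the levels were 1.01 CPM (steer 317), 1.46 CPM (steer 451), 1.47 CPM (steer 409), 3.28 CPM (steer 299) and 4.13 CPM (steer 271). In the 7 H-RFI steers they were 0.342 CPM in steer 155, 1.37 CPM at the median and 14.6 CPM in steer 51. The L-RFI levels lay wholly inside the range of the H-RFI levels, and both groups held libraries of all 3 sets of header codes. The log2 difference (L-RFI minus H-RFI) by limma was -0.02 (SE 0.472, 95% interval -1.04 to 1.01, unadjusted p = 0.974, Benjamini-Hochberg adjusted p = 1). An exact two-sided permutation test of the SCNN1A values, scaled over all 20 libraries, gave means of 1.597 ± 0.544 (SD, n = 5) and 1.614 ± 1.07 (SD, n = 7) on the log2 scale and p = 0.973. No gene passed an adjusted p of 0.05 (0 of 14304, 0%), with 27 genes at an unadjusted p under 0.05 by limma. On the recovered reads edgeR (14304 genes) and DESeq2 (19546 genes) also called 0 genes, with 39 and 124 at an unadjusted p under 0.05. Chance alone would on average put a share of 0.05 of the genes under that threshold, and these counts were far below it. The 0 called genes therefore do not show that the groups are alike. The reason for the low counts was not tested. The near-zero size of the difference held for limma on log2(CPM + 1), where it was at percentile 9.75 of all genes (median 0.09), and its interval still allows a difference of about 1 on the log2 scale in either direction. On the recovered reads of the same steers the log2 difference was -0.50 by DESeq2 (SE 0.705, unadjusted p = 0.477) and -0.50 by edgeR (unadjusted p = 0.501). With the 18 steers of the study's list it was -0.68 by both (unadjusted p = 0.179 by DESeq2 and 0.196 by edgeR), and all of these adjusted p-values were 1.

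The sign of this difference was not stable. It turned when any 1 of 5 steers (51, 55, 317, 409 or 451) was left out, and steer 51 moved it the most. Steer 51 also had the highest RFI in the study's list, so leaving it out removes the extreme of the trait compared. Without steer 51 the log2 difference by limma was 0.34 (95% interval -0.30 to 0.99), and the exact permutation test on 5 L-RFI and 6 H-RFI steers gave p = 0.312. With all 20 libraries grouped by their labels the difference by limma was 0.18 (SE 0.303, unadjusted p = 0.551), and with the 18 steers of the study's list it was -0.20 (SE 0.327, unadjusted p = 0.551), so the sign also followed the source of the groups. By the labels and without steer 51 it was 0.42 (limma unadjusted p = 0.0402, adjusted p = 1). Within set 03 the difference was -0.73 between 2 L-RFI and 2 H-RFI steers, and the exact permutation test gave p = 1, in a design that cannot go below 0.333. Within set 12 it was 0.16 between 2 and 3 steers (exact permutation p = 0.8, smallest possible 0.1), and set 01 held too few of the 12 steers for a value (1 L-RFI, 2 H-RFI). Of the keratinocyte and junction genes none was called, and LYPD3, a surface protein gene of squamous epithelia, was the only one with an unadjusted p under 0.05 (log2 difference -0.38, SE 0.161, limma p = 0.0349, adjusted p = 1). Of the membrane turnover and the carrier genes none reached an unadjusted p of 0.05 by limma.

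**Figure D4:**
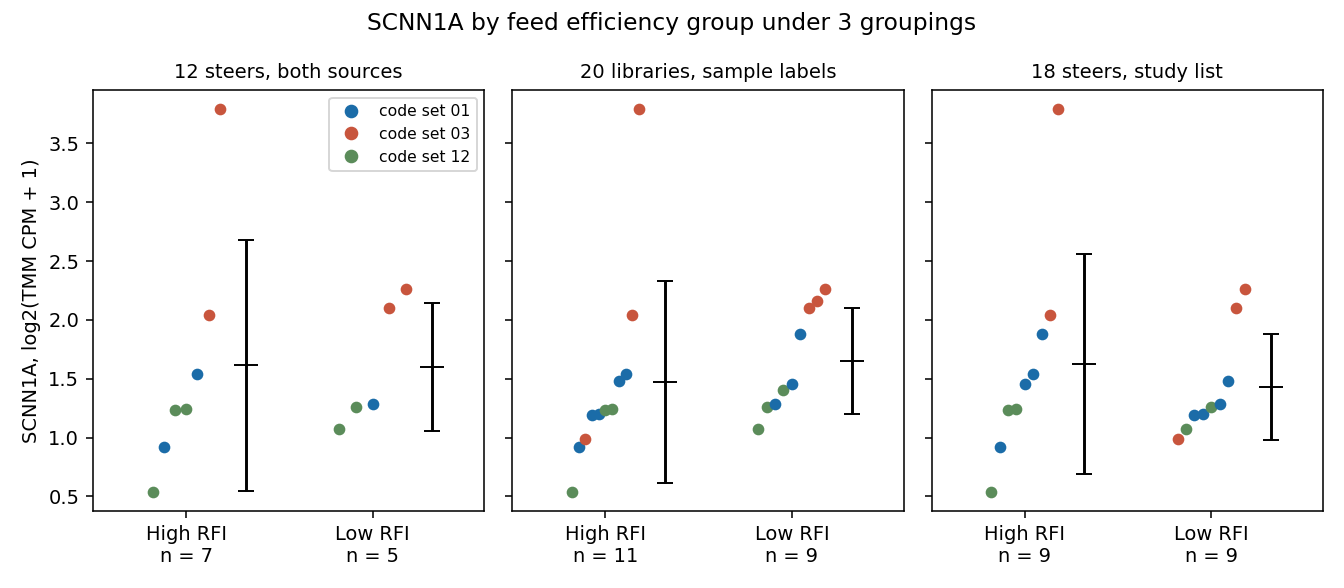
SCNN1A as log2(TMM-scaled CPM + 1) in H-RFI and L-RFI steers under 3 groupings, namely the 12 steers on which both sources agree, the 20 libraries by label and the 18 steers of the study's list, with 1 point per library coloured by set of header codes and bars for the mean ± SD. The groups overlap in each grouping, and steer 51, at 3.79, is in the H-RFI group of all 3.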

How the data were processed

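The authors deposited 1 table per steer of CPM for each Ensembl gene. Per the labels and the study's methods, reads were aligned to UMD 3.1 with TopHat2 (2.0.10 in the submitters' processing notes) and counted per gene with HTSeq. Reads were recovered as multiples of the smallest positive value in a library, and 100.0% of these multiples were whole within a tolerance of 0.01. Genes were kept by edgeR's filterByExpr (minimum count 10), scaled by TMM and put on log2(CPM + 1), a scale that understates the change of low genes. RFI groups were compared with limma 3.58.1 (lmFit and eBayes with trend, Benjamini-Hochberg over all genes) in R 4.3.3. Tests of the same kind were run with edgeR 4.0.16 (quasi-likelihood) and DESeq2 1.42.0, which also gave the regularized log for PC1. The scripts were tested on simulated data. No pair of libraries agreed within sampling noise, as the smallest mean chi-square per gene over 190 pairs was 3.15.

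The gene, the gene lists and the tests were chosen with earlier results of these data known. The rule for named genes took SCNN1A, the 5 genes with the highest and the 5 with the lowest Spearman correlation (at most 2 identifiers each way where no symbol was paired), the same among genes with a symbol, and list members, at most 8 per list with values. The genes with the largest lead in steer 51 were singled out after their values were seen. Symbols came from the study's gene table (114 of 123 identifiers), since 0 identifiers matched the reference gene table. Alternatives without steer 51, without steer 345 besides the 4 libraries 47, 105, 155 and 317, and without steers 105, 155 and 317 in the RFI comparison were added after seeing the data, as were those joining the study's list with another test or covariate. Libraries are from separate steers.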

Additional observations from a re-analysis of the deposited data

Results flagged for a closer look

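The library of steer 51 stood apart from the others of its group in 4 of the 16 combinations of group and scale examined, by Dixon's ratio of the gap to the nearest library over the range of the group. On CPM the ratio for SCNN1A was 0.810 among the 7 H-RFI steers on which both sources agree, 0.810 among the 9 H-RFI steers of the study's list and 0.752 in set 03 (6 libraries). On log2(TMM-scaled CPM + 1) it was 0.537 in the H-RFI steers of the list, while the 7 H-RFI steers (0.537) and set 03 (0.546) fell short of the size used for their number of libraries. Chance gives such a ratio in about 1 in 20 groups, but that rate does not apply here, because SCNN1A was chosen for its wide range and these groups share the same library. The ratios are therefore a description of that range and not a test.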

How the results depend on the processing

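No paired analysis was possible because the steer numbers are unique and replicates are numbered only in accession order. Of 97 alternatives, 75 kept the direction and the side of the threshold or moved the value little, 10 turned the sign and 12 moved the value. The RFI difference of SCNN1A (-0.02) was 0.18 with all 20 libraries by label, 0.10 with a pseudocount of 0.1, 0.16 within set 12, 0.0698 with the study's list without steer 51 and 0.42 with the labels without steer 51. Leaving out each library in turn gave -0.20 to 0.34. It was -0.18 without steers 105, 155 and 317, -0.50 by DESeq2 and by edgeR, and -0.17 with the header code set as a covariate. The adjusted p was between 0.978 and 1 and the number of genes called was 0 under every alternative run. The correlation with PC1 (-0.40) was -0.0737 without steers 47, 105, 155 and 317, 0.0212 without steer 345 as well, -0.21 without the 2 libraries farthest from the median, 0.0789, -0.80 and -0.49 within sets 01, 03 and 12, and -0.50 with CPM as deposited. The 162 genes most like SCNN1A became 382 by Pearson's r, 1382 on CPM as deposited, 49 after centring on set means and 260 without the 5 libraries, and of the nearest 100 genes 18, 54, 17 and 22 were shared. Without those 5 libraries the keratinocyte and junction genes above 0 were 7 in place of 4. The cause of these changes was not tested. A median of 18 reads limits the SCNN1A level of single libraries, and steer 155 rests on 4 reads.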
